A study of Oncorhynchus mykiss with 6 samples.

Results

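The microRNAs miR-219 and miR-338 were followed in dorsal skin of rainbow trout (Oncorhynchus mykiss). Every entry of the deposited table whose name, without its last letter, is exactly miR-219 or miR-338 was taken, which gave 5 of 1939 entries: miR-219-x, miR-219-y, miR-338-x, miR-338-y and miR-338-z. The names were the only basis of the choice, although earlier results of these data were known when it was made. The 6 small RNA libraries form 2 groups of 3. WR is wild-type fish with black skin and YR is yellow mutant fish with yellow skin, both sampled at 45 days. The labels name neither the mutated gene nor whether a library holds 1 fish or a pool, and the spread that p-values rest on is that between these libraries and may be technical. The question of the series is which miRNAs take part in forming the skin colour of each stock.

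A miRNA is cut from a hairpin precursor whose 5p and 3p arms can each give a mature strand, and the bases at its 5′ end called the seed lead it to target mRNAs. In the central nervous system of mammals, miR-219 and miR-338 accumulate as oligodendrocytes mature. They lower proteins that hold the precursor state, among them the growth factor receptor PDGFRA and the transcription factor SOX6. In mammals the miR-338 precursor lies within AATK, a kinase gene expressed in neurons. Skin holds the peripheral nerve endings and their Schwann cells. The table holds no mRNA, so no glial protein marker could be set beside these entries, and whether the reads came from glia was not tested.

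The listed sequences are shown because they separate the arms and show which entries share a seed or a run of bases. They are given 5′ to 3′ as in the deposited table, with T for U, and capitals mark the seed, bases 2 to 8.
miR-219-x: tGATTGTCcaaacgcaattcttg
miR-219-y: aGAATTGTgcatggacatctgt
miR-338-x: aACAACATcctggtgctgcctgagt
miR-338-y: tCCAGCATcagtgattttgttgc
miR-338-z: tCCAGCATcagtgattttgttgca
a predicted miRNA: tCCAGCATcagtgattttgttact
miR-7-x: tGGAAGACtagtgattttgttgtt

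The 5 entries were 22 to 25 bases long and held 4 different seeds. The seeds of miR-219-x, miR-219-y and miR-338-x occurred in 1 entry each of the 1939. miR-338-y and miR-338-z shared theirs, and miR-338-z was miR-338-y with 1 more base at its 3′ end. The same seed stood in 5 further entries, all predicted miRNAs with 1 sequence and identical counts in all 6 libraries. Counted from base 1, that sequence was identical to miR-338-y through base 21, carried the substitution G22A relative to it, and was 1 base longer. The sources used here do not say how reads that match several such entries were counted. miR-7-x, a miRNA known from neurons and endocrine cells, has another seed but shared a run of 13 bases with miR-338-y, at bases 10 to 22 of each. It is also on the list of glial miRNAs used below.

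The arms of each family could pair with each other when folded as 2 strands. The predicted duplex of miR-219-x with miR-219-y held 17 base pairs at -20.0 kcal per mol, with 1 unpaired base at the 3′ end of the x strand and 2 at that of the y strand. Such short overhangs are what the enzymes Drosha and Dicer leave. The duplex of miR-338-x with miR-338-y held 17 base pairs at -20.8 kcal per mol, and the 3′ end of miR-338-x had 6 unpaired bases. In the text, x is read as the 5p arm and y as the 3p arm.

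Library totals ran from 8245698 to 10336991 counts, so that 1 read was worth 0.101 to 0.127 of the deposited TPM. By edgeR, 44 of 834 tested entries passed an adjusted p of 0.05, 18 higher and 26 lower in YR. With library totals alone in place of TMM scaling the split was 1 higher and 29 lower, and the median over all tested entries went from -0.03 to -0.26 on the log2 scale. WR replicate 1 stands apart from the other libraries of its group (chi-square per degree of freedom of 405 and 527 against WR replicates 2 and 3, which gave 68.3 against each other). In YR, replicate 3 gave 237 and 122 against replicates 1 and 2, which gave 65.2 against each other. The effect of WR replicate 1 on the members and on the calls in the lists is given beside them.

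miR-338-y was by far the most abundant of the 5 entries. It held 85.4% to 91.8% of their summed counts in each library and ranked between 59 and 82 among all entries. In WR it stood at 420.4, 683.1 and 635.9 TPM (replicates 1, 2 and 3), and in YR at 649.3, 630.8 and 699.9 TPM. WR replicate 1 was the lowest library, and the others lay within one range in which the groups overlapped. Together the 5 entries took 0.0633% ± 0.0168 of a WR library's counts and 0.0699% ± 0.0046 of a YR library's (SD, n = 3 per group), a sum that is mostly miR-338-y. The difference of YR minus WR was 0.00663 percentage points, and -0.00302 without WR replicate 1.

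miR-338-x, the opposite arm, came next. It stood at 39.8, 95.4 and 107.7 TPM in WR and at 71.3, 51.2 and 71.1 TPM in YR. All 3 YR libraries fell between the lowest and the highest WR library. miR-338-z was read 5, 2 and 5 times in WR, and 4, 0 and 3 times in YR. A count of 0 in YR replicate 2 allows up to 0.381 TPM (3 counts), and the counts of the groups overlapped.

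miR-219 was scarce. miR-219-x, which carries the miR-219 sequence studied in oligodendrocytes, was read 14, 14 and 3 times in WR replicates 1, 2 and 3, and 63, 31 and 53 times in the YR replicates. This is 1.70, 1.61 and 0.339 TPM against 6.47, 3.94 and 5.33 TPM. Every YR library lay above every WR library, and WR replicate 3 was the lowest. The 95% counting intervals of WR replicates 1 and 2 reached up to 2.86 and 2.69 TPM, and that of YR replicate 2 down to 2.67 TPM. Intervals and limits given for single libraries cover counting error only.

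The other arm, miR-219-y, was also higher in every YR library than in every WR library, at still lower counts. Among the 834 tested entries, which do not include the scarcer miR-219-y, 8.63% also showed no overlap in this direction. miR-219-y was read 5, 0 and 2 times in WR, and 23, 7 and 8 times in YR. In TPM the WR libraries stood at 0.608, 0 and 0.226 and the YR libraries at 2.36, 0.889 and 0.805. WR replicate 2 was the lowest here, and not WR replicate 3 as for miR-219-x. The count of 0 in WR replicate 2 allows up to 0.344 TPM (3 counts). Summed over the libraries, its share of the counts was 5.09 times higher in YR (95% counting interval 2.24 to 13.5), against 4.44 times for miR-219-x (3.0 to 6.78). These intervals leave out the spread between libraries.

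In YR the order of the levels was the same in every library, with miR-338-y above miR-338-x, miR-219-x, miR-219-y and miR-338-z. In WR the order of the 3 scarce entries varied. In WR replicate 3, miR-338-z with 5 counts stood above miR-219-x with 3, and in WR replicate 1 miR-219-y and miR-338-z had 5 counts each. Those 3 entries did not differ from each other beyond counting error in WR replicate 3. Levels are reads per entry, which for miRNAs of like length are not divided by length.

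**Figure D1:**
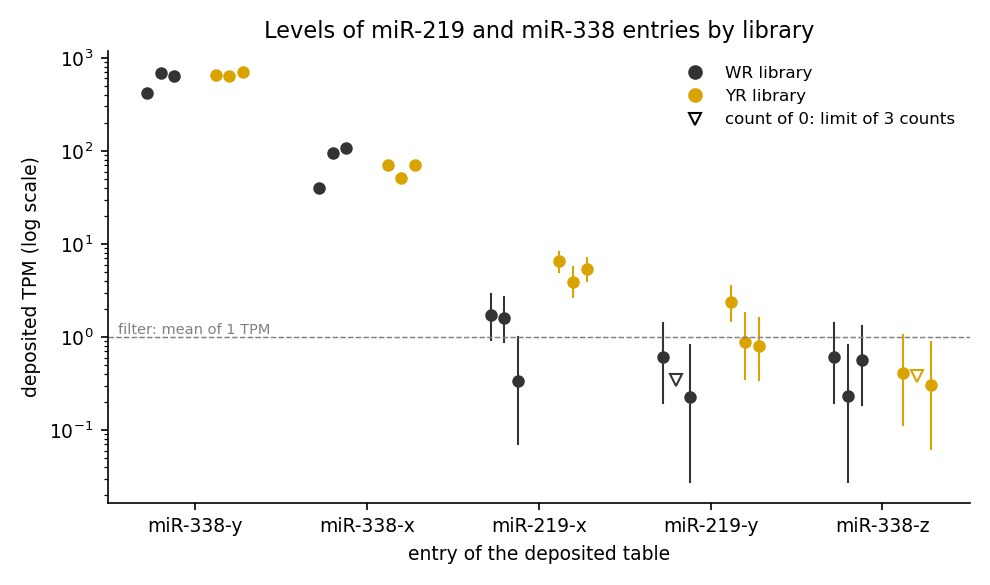
Deposited TPM on a log scale for each entry in the 3 WR (dark) and 3 YR (yellow) libraries, with 95% counting intervals as bars and a triangle at the limit of 3 counts where the count was 0. The YR libraries of miR-219-x, from 3.94 to 6.47 TPM, all lie above its WR libraries, from 0.339 to 1.70 TPM, whereas the groups overlap for all 3 miR-338 entries.

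The comparison of YR with WR was made across all entries with a mean of at least 1 TPM, which 3 of the 5 members reached. miR-219-y and miR-338-z stayed below it, with means of 0.815 and 0.353 TPM. By edgeR's quasi-likelihood test, 0 of the 3 tested members passed after adjustment, where 5.28% of all tested entries passed in either direction and 2.16% passed as higher in YR. These shares count repeated predicted sequences more than once. With 1 entry per distinct sequence 3 of 691 passed as higher and 18 as lower, and with known names only 0 of 428 passed. At an unadjusted p under 0.05 there was 1 of the 3, miR-219-x, where 21.7% of all tested entries had such a p. With known names only, as the members have, it was 52 of 428.

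miR-219-x had a log2 fold change of 2.37 (SE 0.524), which is 5.16-fold, and an edgeR adjusted p of 0.0614. Among the 834 entries it ranked 2 by fold change towards YR and 49 by p. On the deposited scale the WR mean was 1.22 ± 0.760 TPM and the YR mean 5.25 ± 1.27 TPM (SD, n = 3 per group). Its groups did not overlap, which 8.63% of all tested entries also showed in this direction. DESeq2 called it as higher in YR (log2 fold change 2.32, adjusted p = 0.00219), as it did 4.10% of the entries to which it gave an adjusted p. Limma on log2(TPM + 1) gave a log2 difference of 1.54 on that scale and an adjusted p of 0.0606. In the authors' deposited table the log2 fold change is 2.11 and the adjusted p is 0.0164, and 1.60% of all 1939 entries there are higher with an adjusted p under 0.05.

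With all 6 libraries the call differed between methods, and by edgeR it turned on 1 library. Without WR replicate 1 miR-219-x passed by edgeR (log2 fold change 2.46, adjusted p = 0.0182), in a fit that called 3.72% of entries as higher in YR. Leaving out any 1 of the other 5 libraries gave log2 fold changes from 1.96 to 2.53 and edgeR adjusted p from 0.0808 to 0.195. WR replicate 3, with 3 counts, is the library whose removal brought the value down to 1.96. Over all 18 alternative settings the adjusted p of miR-219-x ran from 0.00219 to 0.249.

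miR-219-y entered the test only when the filter was lowered to a mean of 0.5 TPM, which it reached through YR alone (WR mean 0.278 ± 0.307 TPM, YR mean 1.35 ± 0.876 TPM; SD, n = 3 per group), so its value there is given as a description. There its log2 fold change was 2.41 (SE 0.886). With no filter, where all 1939 entries were tested, it was 2.42 (edgeR adjusted p = 0.232). In the authors' deposited table its log2 fold change is 2.26 and its adjusted p is 0.104. The value of neither arm passed by edgeR over all 6 libraries, and since both arms are cut from shared precursors they are not independent evidence.

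miR-338-y had a log2 fold change of 0.41 (SE 0.261; edgeR adjusted p = 0.364). Its mean was 579.8 ± 140.1 TPM over the WR libraries and 660.0 ± 35.8 TPM over the YR libraries (SD, n = 3 per group). Without WR replicate 1 the log2 fold change was 0.02 (SE 0.123), and with library totals alone and all libraries it was 0.19. For miR-338-x the log2 fold change was -0.13 (SE 0.440; edgeR adjusted p = 0.863), and without WR replicate 1 it was -0.64 (SE 0.199; edgeR adjusted p = 0.0722). Neither arm passed with or without that library. The sign of miR-338-x was not stable: its log2 fold change was 0.22 without WR replicate 3, and 0.01 both without YR replicate 2 and with the replicate number as a block. Over all alternatives the adjusted p ran from 0.284 to 0.998 for miR-338-y and from 0.0699 to 0.990 for miR-338-x. The authors' deposited table gives log2 fold changes of 0.19 and -0.33 for miR-338-y and miR-338-x, with adjusted p of 0.909 and 1.0.

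The predicted miRNA with the seed of miR-338-y was read 12, 26 and 22 times in WR, and 21, 12 and 14 times in YR. Its log2 fold change was -0.24 (SE 0.378; edgeR adjusted p = 0.687), and the groups overlapped.

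**Figure D2:**
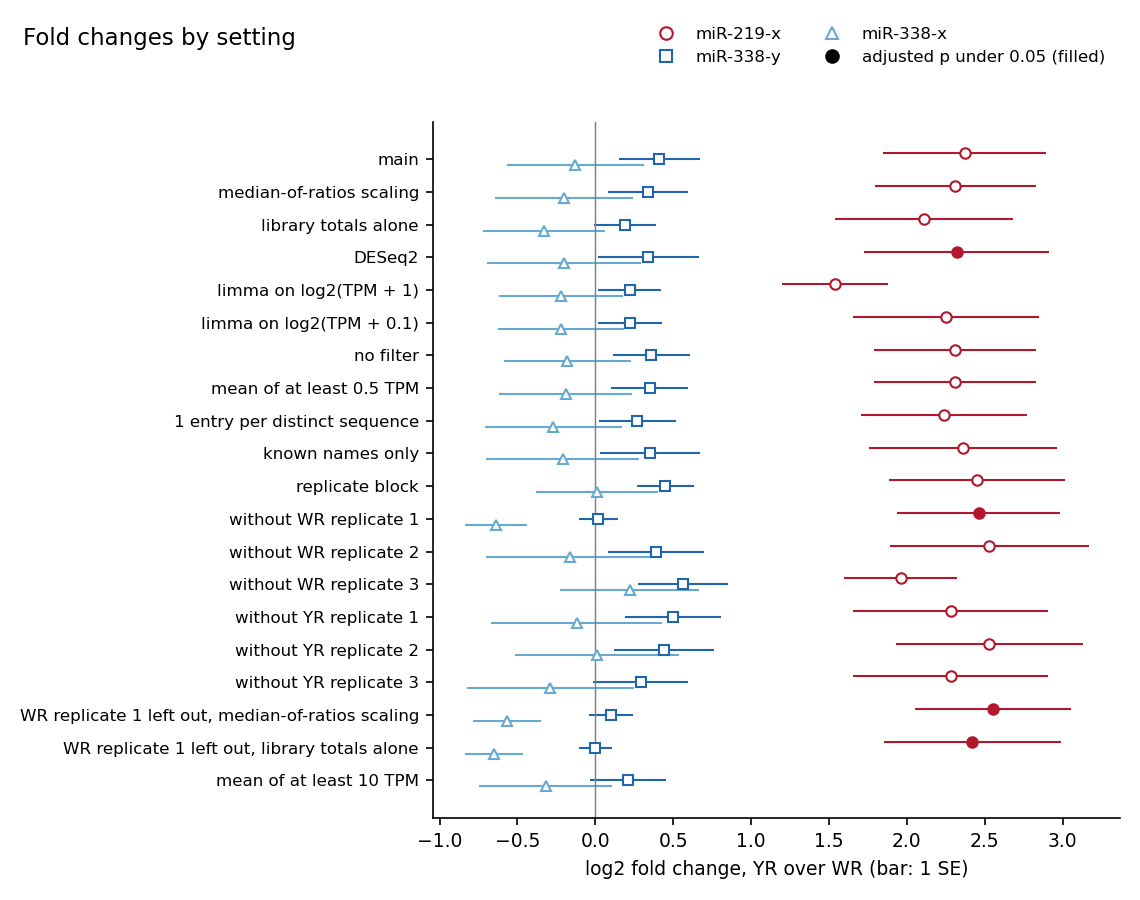
Log2 fold change of YR over WR (x axis; bars, 1 SE) of miR-219-x, miR-338-y and miR-338-x under each setting, filled where the adjusted p was under 0.05. All values of miR-219-x lie between 1.54 and 2.55, and its 4 filled points are DESeq2 and the 3 fits without WR replicate 1; miR-338-y stays between 0.00 and 0.56.

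Ratios between entries within a library need no scaling between libraries. The ratio of miR-338-y to miR-219-x was 238, 411 and 1610 in the WR libraries (counts plus 0.5) and 99.6, 158 and 130 in YR. All YR libraries lay below all WR libraries. The denominator is miR-219-x, whose own counts did not overlap, so this is no separate result. Its log2 was 9.08 ± 1.42 for WR and 6.99 ± 0.334 for YR (SD, n = 3 per group), a difference of -2.09 (exact permutation test, 2-sided, p = 0.1, the smallest that 3 libraries against 3 allow; adjusted over 3 ratios, 0.3). WR replicate 3 had the highest ratio, and without it the difference was -1.30.

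The arm ratio of miR-338 leaned towards the 3p arm in every library. miR-338-y had 10.6, 7.16 and 5.90 times the reads of miR-338-x in WR and 9.10, 12.3 and 9.83 times in YR. The groups overlapped through WR replicate 1. Its log2 was 2.93 ± 0.427 for WR and 3.37 ± 0.227 for YR (SD, n = 3 per group), a difference of 0.44 (exact permutation test, 2-sided, p = 0.3; adjusted 0.45).

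In miR-219 the dominant arm was the 5p arm. miR-219-x had 2.64, 29.0 and 1.40 times the reads of miR-219-y in WR, where the second value rests on a count of 0, and 2.70, 4.20 and 6.29 times in YR. Its log2 was 2.25 ± 2.31 for WR and 2.05 ± 0.61 for YR (SD, n = 3 per group), a difference of -0.19 (exact permutation test, 2-sided, p = 1.0). It turned positive without WR replicate 2, at 1.11, so at these counts no difference in the arm ratio was detectable.

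**Figure D3:**
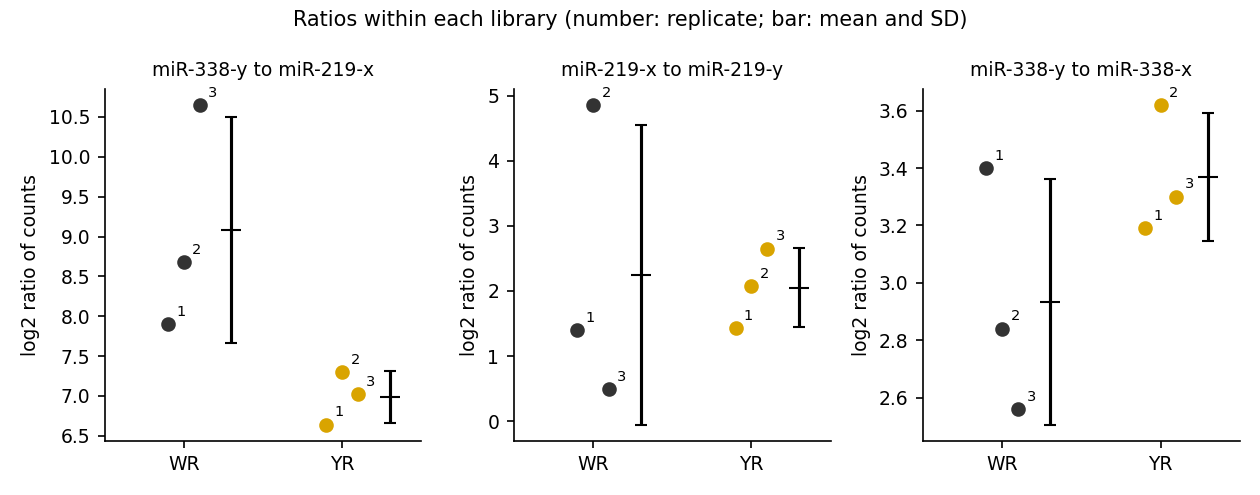
Log2 ratio of counts (y axis) in each library, numbered by replicate, with the mean and SD of each group as a bar. The ratio of miR-338-y to miR-219-x does not overlap between the groups, at 9.08 in WR and 6.99 in YR on average, while both arm ratios overlap. Its exact permutation test, 2-sided, gave p = 0.1 (adjusted over 3 ratios, 0.3), and the counts of miR-219-x alone do not overlap either.

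Other miRNAs reported in mammalian myelinating glia were read from a list of 9 family numbers, all of them in the table, with 17 tested entries. By edgeR 0 of the 17 passed, while 2 had an unadjusted p under 0.05. Such a p was found for 21.7% of all tested entries, and for 52 of 428 in a fit of known names only. DESeq2 called 0 and limma 0. Without WR replicate 1, edgeR called 1 of the 17 as lower in YR, miR-29-x, at an adjusted p of 0.00728. Its log2 value was -0.68 with all libraries and -1.28 in that fit, which called 10.4% of all entries as lower in YR. The median of the list was 0.06 there. Of the 17, 11 log2 fold changes were positive and 6 negative, where 407 of all 834 were positive. Their median was 0.17, where that of all tested entries was -0.03, and with library totals alone it was -0.08, where that of all was -0.26. Most of these families are read in many tissues, and the most abundant were let-7-x, at 27550 ± 1030 and 28170 ± 276 TPM (WR and YR, SD, n = 3 per group), and miR-23-y, at 6628 ± 820 and 7262 ± 417 TPM. miR-138-x, which with miR-219 and miR-338 is among the miRNAs that increase most in maturing rodent oligodendrocytes, stood at 7.59 ± 2.82 and 7.15 ± 1.18 TPM (log2 fold change 0.17, edgeR adjusted p = 0.70).

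Of 15 tested neuronal entries from 8 family numbers, 13 log2 fold changes were positive, against the same 407 of 834, with a median of 0.55 (0.32 with library totals alone and 0.38 without WR replicate 1). By edgeR 0 passed, while 6 had an unadjusted p under 0.05, again against 21.7% of all and 52 of 428 with known names only. All 6 were entries of miR-124, miR-9 and miR-218. Entries of 1 family are not independent, which limits this count and that of the 13 positive values. DESeq2 called 1 as higher in YR, miR-124-y, as it did 4.10% of the entries to which it gave an adjusted p. Limma called 0. Without WR replicate 1, edgeR called 1 as higher, again miR-124-y, in a fit that called 3.72% of entries as higher. Summed over the list, the level ran from 3053 to 5499 TPM in WR and from 3440 to 4992 TPM in YR, and the groups overlapped. miR-128-y gave most of it, at 3750 ± 1290 and 3900 ± 715 TPM (SD, n = 3 per group). The defining markers were not absent: miR-124-y, the most neuron-specific of them, was read in all 6 libraries, and of the 20 entries on the list miR-137-x and miR-124-x were at 0 in some libraries.

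miR-124-y stood at 25.8, 17.4 and 12.2 TPM in WR and at 63.4, 29.3 and 24.1 TPM in YR. By deposited TPM, YR replicate 1 was the highest library for it, as for miR-219-x, and WR replicate 3 the lowest. With TMM scaling, YR replicate 3 was the highest for miR-219-x, at 6.1 CPM against 6.03 in YR replicate 1. The log2 fold change of miR-124-y was 1.30 (SE 0.377, edgeR adjusted p = 0.117). DESeq2 gave it an adjusted p of 0.0496, and edgeR without WR replicate 1 gave 0.0495. miR-218-x, known from motor neurons and the next most abundant after miR-128-y, stood at 66.5 ± 0.993 and 82.7 ± 5.43 TPM (WR and YR, SD, n = 3 per group), with a log2 fold change of 0.55 (SE 0.169; edgeR adjusted p = 0.132). The part of these markers in the values of miR-219 was not tested. In such bulk libraries more cells of a type and more RNA per cell cannot be told apart.

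Lists for other cells and tissues, not all of them of skin, gave the following background. It is to be read against 2.16% of all tested entries called higher and 3.12% called lower in YR by edgeR. Without WR replicate 1 these shares were 3.72% and 10.4%. Of 781 entries with an adjusted p, DESeq2 called 32 as higher and 44 as lower. Limma on log2(TPM + 1) called 4 of 834 as higher and 37 as lower. An unadjusted edgeR p under 0.05 was found for 21.7% of all tested entries, and for 52 of 428 with known names only. In the sensory cluster all 5 tested entries were negative, with a median log2 fold change of -0.71 and 0 past the threshold by edgeR (2 unadjusted, 2 by DESeq2, 1 by limma). They are arms of miR-182, miR-183 and miR-96 alone, and here as in the other lists arms of 1 family are not independent. Without WR replicate 1, 3 of the 5 fell by edgeR and the median was -0.87. Of 16 epidermal entries, 0 passed by edgeR (0 unadjusted, 0 by DESeq2 and 0 by limma), with a median of -0.22. Without WR replicate 1, 6 of the 16 fell by edgeR and the median was -0.45, and with library totals alone and all libraries the median was -0.44. In dermis and mesenchyme 1 of 10 rose by edgeR, miR-199-y, with a median of 0.31 and 3 at an unadjusted p under 0.05. DESeq2 called 2 and limma 0, and edgeR called 2 as higher without WR replicate 1 (median 0.36; 0.06 with library totals alone). On the list named for liver and gut, 1 of 5 fell by edgeR, miR-122-x, with a median of -0.57 and 3 at an unadjusted p under 0.05. DESeq2 and limma called 1 each, and edgeR called 2 as lower without WR replicate 1 (median -0.78). With and without that library edgeR called 0 of 9 skeletal muscle entries, 0 of 5 of red blood cells and 0 of 6 of white blood cells. Their medians were 0.18, 0.01 and 0.16 with all libraries, and -0.08, 0.3 and -0.07 without WR replicate 1. With all libraries 1, 0 and 2 of them had an unadjusted p under 0.05 by edgeR, and DESeq2 and limma called 0 of them.

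**Figure D4:**
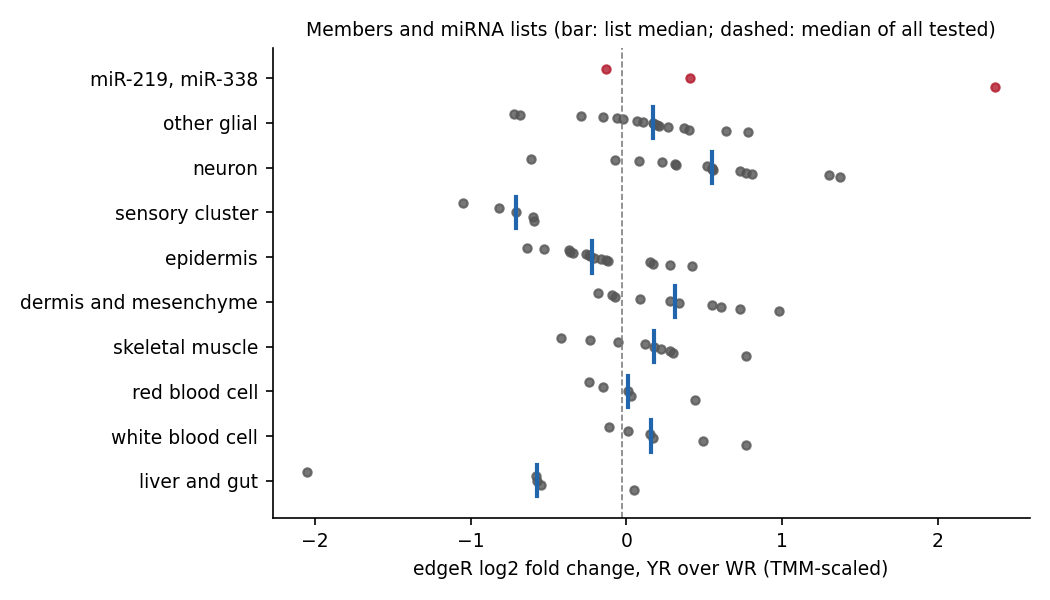
TMM-scaled log2 fold changes of YR over WR (x axis) of the 3 tested members (red) and of the tested entries of each list (grey), with the list median as a bar and the median of all tested entries, -0.03, as a dashed line. miR-219-x, at 2.37, lies to the right of every listed entry, and miR-338-y and miR-338-x lie within the range of the glial list.

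The known entries whose pattern over the 6 libraries was most like each member were sought among 254 with a mean of at least 10 TPM. Likeness was the root mean square difference of log2 CPM, each entry centred on its own mean, so that a small value means a like pattern. An entry equal in all 6 libraries would score 1.28 for miR-219-x, 0.386 for miR-338-y and 0.556 for miR-338-x. For miR-219-x the nearest was miR-124-y at 0.721, then miR-30-z, miR-460-y, miR-199-z and miR-216-x at 0.831 to 0.910, against a median of 1.26 over the 254. Being picked for likeness over these same libraries, their likeness to miR-219-x is no separate result. For miR-338-y the nearest were miR-737-x at 0.0716, miR-152-x, miR-152-z, miR-190-x and miR-92-x, up to 0.120, against a median of 0.431. For miR-338-x they were miR-7-x at 0.118, miR-148-z, miR-23-z, miR-10-x and miR-10545-x, up to 0.164, against a median of 0.612. Of these, miR-7-x and miR-23-z are entries of the glial list. All 10 entries nearest to the miR-338 arms were lowest in WR replicate 1, as these arms were. They were chosen for likeness to the arms over these same libraries, so this is no separate result. miR-7-x, which shares the run of 13 bases with miR-338-y, was read 624, 1509 and 1915 times in WR, and 1472, 923 and 1570 times in YR. By deposited TPM its libraries stood in the order of those of miR-338-x, except that YR replicates 1 and 3 changed places. The run is not present in miR-338-x, and whether it has a part in these counts was not tested.

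**Figure D5:**
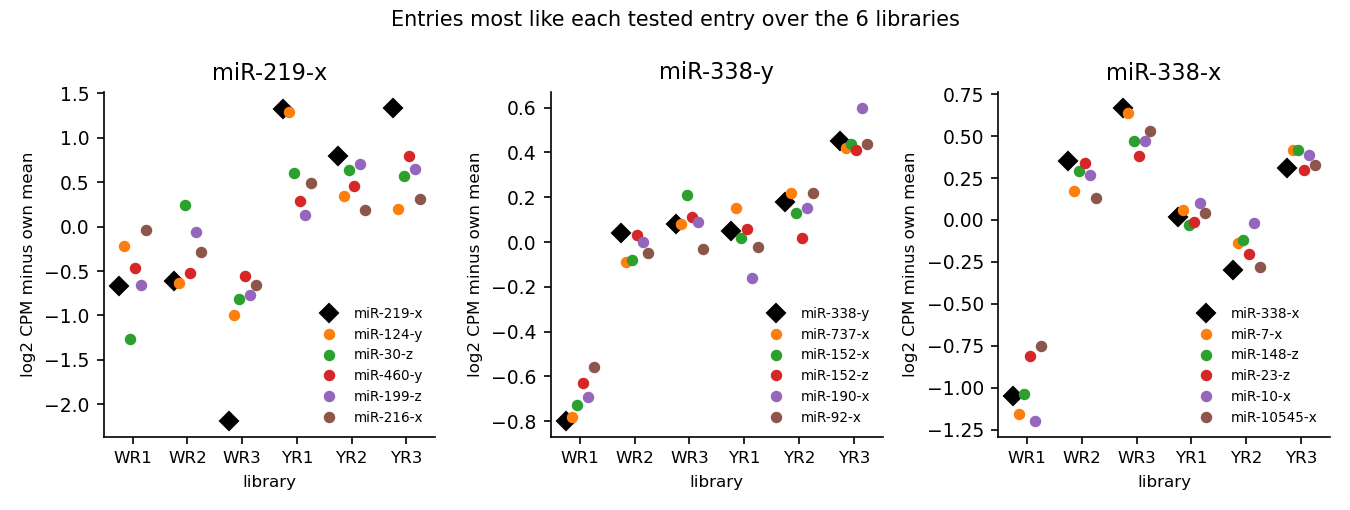
Log2 CPM minus the entry's own mean (y axis) in each of the 6 libraries for miR-219-x, miR-338-y and miR-338-x (black diamonds) and the 5 known entries most like each (coloured points). The miR-338 arms are low in WR replicate 1, and their nearest entries, chosen for a like pattern, share this. miR-219-x falls furthest below its own mean, at -2.19, in WR replicate 3.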

How the data were processed

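Small RNA of 6 dorsal skin libraries was sequenced on an Illumina HiSeq Xten after Trizol extraction and adapter ligation, per the labels' protocols. The authors deposited whole-number counts per mature miRNA, and a TPM score that does not add up to the same sum in each library; a count of 0 is written there as 0.01 and was set to 0. The authors also deposited a log2 fold change with its p-value, raw and adjusted; the sources used here name no test, aligner, miRNA database or genome build.

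Members, lists and tests were chosen with earlier results of these data known. Entries that averaged 1 TPM or more over the 6 libraries were tested with edgeR 4.0.16 (R 4.3.3): YR against WR by the quasi-likelihood test after TMM scaling, Benjamini-Hochberg adjustment over all 834 entries, threshold 0.05, no replicate term. SE is the log2 fold change divided by the square root of F. DESeq2 1.42.0 and limma 3.58.1 were alternatives. Ratios within a library were compared by exact permutation tests. The summed share was planned with such a test and is given as values only. Counting intervals are exact Poisson or binomial, at 95%. For a count of 0 the limit given is 3 counts, which is tighter than such an interval. The interval reaches 0.423 TPM for miR-219-y in WR replicate 2 and 0.468 TPM for miR-338-z in YR replicate 2. Duplexes were folded with RNAduplex 2.7.2. The edgeR step was also run on simulated data without an outlying library, and its outcome is not given here. Replicates of a group differed by far more than sampling noise (chi-square per degree of freedom 65.2 to 527), so each library counts as 1.

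Named were all members, entries sharing a seed, the 5 patterns most like each tested member, and of the glial and neuronal lists those most abundant or past the threshold; miR-138-x was named outside that rule, after its values were seen. Of the other lists only entries past the threshold are named.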

Additional observations from a re-analysis of the deposited data

How the results depend on the processing

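The log2 fold change of miR-219-x stayed positive in all 18 alternatives, from 1.54 to 2.55, with adjusted p from 0.00219 to 0.249. It crossed the threshold in 4: DESeq2 (2.32) and, without WR replicate 1, TMM (2.46), median-of-ratios scaling (2.55) and library totals alone (2.42), the last 2 chosen after seeing the data. Leaving out each library in turn gave 1.96 to 2.53. With the filter at 10 TPM it had no value, since it is scarcer than that. miR-338-y missed the threshold in all 19 alternatives (0.00 to 0.56), as did miR-338-x (-0.65 to 0.22), whose sign turned without WR replicate 3 (0.22) or YR replicate 2 (0.01; leave-one-out range -0.64 to 0.22) and with a replicate block (0.01). The arm ratio of miR-219 turned sign with counts plus 1 (0.12) and ranged from -1.08 to 1.11 without single libraries. The number of entries past the threshold, 44, was 76 with DESeq2, 16 with that filter, and 21 with 1 entry per distinct sequence. It was 0 with known names only (52 of 428 at an unadjusted p under 0.05 by edgeR), 2 with a replicate block, and 1 to 118 without single libraries. Whether equal replicate numbers mark paired fish is not stated. Deviations of same-numbered libraries correlated at 0.26, -0.104 and 0.27, which does not settle whether such libraries are paired. With the replicate block miR-219-x stood at 2.45 and miR-338-y at 0.45. The causes of these shifts were not tested. Depth limits the scarce entries: miR-219-x rests on 31 WR counts, 3 of them in WR replicate 3.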
